A study of Mus musculus with 6 samples.

Results

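The genes described here were Atf4 and 9 genes that ATF4 is known to switch on or to work with in amino acid supply and stress: Ddit3, Trib3, Asns, Chac1, Psat1, Phgdh, Shmt2, Mthfd2 and Slc7a11. They were picked out by mouse gene symbol, with no threshold on their measured values but with earlier results of these data known, and made up 10 of the 55364 genes listed in the count tables. All 10 had enough reads to be tested, Slc7a11 through its wt libraries alone, since it had 3 to 5 counts in Tks5+/- libraries. Symbol Ddit3 also stood on a second listed row with at most 4 counts in a library, which was too low to test and was kept apart.

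The data were 3′-end RNA libraries (Quant-Seq, in which a read marks the end of a polyadenylated transcript) from primary mouse lung fibroblasts, 3 from wild type (wt) mice and 3 from mice that the deposited labels give as TKS5 knockout and the study describes as heterozygous, Tks5+/-. The latter name is used below for the libraries so labelled. The study isolated such fibroblasts by collagenase digestion of lungs of young adult C57Bl6/J mice, used them at low passage, and compared wt and Tks5+/- littermates. It describes a reporter allele and a deletion allele of Sh3pxd2a, made with a Cre recombinase active in all tissues, and which of them these cultures carried is not given in the sources used here. All 6 cultures received TGFβ1 at 10 ng/ml for 24 h in serum-free medium, so no untreated culture enters the comparison and a response to TGFβ itself cannot be read from it. The study states that its samples are biologically independent, but which animal or culture each library came from is not given in the sources used here, so the p-values measure the spread between these libraries.

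ATF4 is a transcription factor whose own translation rises when the initiation factor eIF2 is phosphorylated by one of the kinases that sense amino acid shortage, haem shortage, double-stranded RNA or unfolded protein in the endoplasmic reticulum. With C/EBP partners it binds composite DNA elements and drives genes for amino acid synthesis, amino acid uptake and tRNA charging. In fibroblasts exposed to TGFβ the pathway is known for supplying glycine, made from serine, for collagen. Since ATF4 is controlled largely at translation, its RNA level is not a measure of its protein.

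The letters that ATF4 and C/EBP partners recognise together were searched in the promoters of the 10 genes and are shown because they mark where on the DNA that control is thought to act. Since the genes were chosen as known ATF4 targets or partners, the matches are a description and not independent of that choice. The core TGATGNAA was sought on both strands of the 300 bases from 250 before to 50 after each annotated start (RefSeq, GRCm38.p6). It was found in 4 of the 10 genes, beside 4.51% of all 27025 gene symbols in the table (3.97% of its 32851 promoters, since some genes have several). The matches are shown in capitals within 30 bases, each written on the strand of the gene, so that matches on the other strand read as the reverse complement.
Asns: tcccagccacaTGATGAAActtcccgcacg
Slc7a11: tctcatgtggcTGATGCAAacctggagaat
Slc7a11: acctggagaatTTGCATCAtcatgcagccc
Chac1: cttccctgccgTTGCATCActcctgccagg
Trib3: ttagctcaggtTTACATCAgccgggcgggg
The Asns window lay at chr6:7693214-7693243, with the match 23 bases before the RefSeq start, which is inside the gene as GENCODE bounds it. Slc7a11 held a pair of matches facing opposite ways, in windows at chr3:50443661-50443690 and chr3:50443642-50443671, which began 66 and 47 bases before the start. The Chac1 match began 193 bases before the start (chr2:119351038-119351067), and the Trib3 match began at base 15 counted from the RefSeq start (chr2:152344028-152344057), which is upstream of the gene as GENCODE bounds it. The palindromic cAMP response element TGACGTCA (2.03% of gene symbols) and the endoplasmic reticulum stress element ERSE (0.137%) had no match in the 10 genes. None of these matches is shown to be a site in these cells, and the absence of a match says only that the letters are not in the window.

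Total counts ran from 1344507 to 2369882 per library, and 10346 genes were tested. A gene was called when the Benjamini-Hochberg adjusted p of edgeR's quasi-likelihood test was under 0.05 and its change was at least 1.2-fold. By that rule 44.9% of all genes tested were called, 22.8% higher and 22.1% lower in the Tks5+/- libraries, and the genes tested had a median change of -0.05 (log2). Sh3pxd2a, the gene of Tks5, gave 205, 190 and 284 counts in wt and 238, 258 and 260 in Tks5+/- libraries (log2 fold change 0.29, adjusted p = 0.249, edgeR). It was thus not lower in the libraries labelled TKS5 knockout. Over the other ways of processing its log2 fold change ran from -0.13 to 1.15, and it was called higher with a length correction and with length and GC corrections. The deleted exon lies inside the gene, away from the 3′ end that was read, and whether the mutant transcript keeps that end was not tested, so this count is no support for the genotype and every direction below rests on the labels. The 11 fibroblast markers summed to 9125 to 14122 CPM in the 6 libraries (counts scaled to library size by the TMM method). Single markers differed between the groups, with 4 of the 11 called higher and 2 lower in Tks5+/- libraries. Thy1 (34.1 to 67.5 CPM in wt, 164 to 214 in Tks5+/-) and Vim (618 to 845, 1431 to 2019) were higher. Fn1 (1126 to 1271, 367 to 493) and Pdgfrb (136 to 227, 60.4 to 109) were lower. Lum had only 3.29 to 16.6 CPM. These genes were named after their values were seen. Macrophage markers summed to 419, 354 and 2102 CPM in wt libraries 1 to 3 and to 125 to 141 CPM in Tks5+/- libraries, with 10 of the 12 markers detected in the latter and Ptprc and Adgre1 at 0. Replicate 3 of wt thus stood apart, and results that rest on it are also given without it. The sums of endothelial (115 to 146 against 45.6 to 60.4 CPM) and mesothelial markers (25.1 to 38.2 against 4.09 to 10.4 CPM) were also lower in Tks5+/- libraries. Pecam1 and Tek were at 0 in Tks5+/- libraries. Ramp2 alone of the endothelial markers overlapped (20.8 to 30.9 against 26.3 to 35.1 CPM), and it made up most of each Tks5+/- sum. The mesothelial markers Msln and Wt1 overlapped between the groups. Of the epithelial markers, Cldn4 (8.03 to 18.5 against 0 to 1.76 CPM), Krt18 (5.79 to 11.5 against 0 to 0.512 CPM) and Cdh1 (4.28 to 21.5 CPM against 0) were lower in Tks5+/- libraries as well, and Ager alone was higher (9.63 to 13.0 against 29.2 to 60.3 CPM). Their sums overlapped through Ager, which made up nearly all of them in Tks5+/- libraries (32.1 to 70.4 against 29.7 to 62 CPM; Sftpc, Sftpb, Sftpa1 and Scgb1a1 at 0 in all, Epcam, Cldn18, Krt8 and Cdh1 at 0 in Tks5+/-). In bulk libraries, fewer cells of a type and less RNA per cell cannot be told apart.

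Among the 10 genes, the serine synthesis genes Psat1 and Phgdh and the mitochondrial one-carbon genes Shmt2 and Mthfd2 were called higher in the Tks5+/- libraries and the cystine transporter gene Slc7a11 was called lower. Atf4 itself, the stress factors Ddit3 and Trib3, the asparagine synthetase gene Asns and the glutathione-degrading enzyme gene Chac1 did not pass the test. The 5 called of 10 stand beside 44.9% of all genes, so the share called is near the background and is not a result about these genes. The CPM of the 2 groups did not overlap for 6 of the 10 genes, 5 higher and 1 lower, against 53.8% of all genes tested (26.1% higher and 27.6% lower). The median log2 fold change of the 10 was 0.43. Without wt replicate 3, 3 were called higher and 1 lower, Phgdh being the call that was lost. Of the 4 genes with the core in their promoter, Slc7a11 was called and the other 3 were not, and none of the 4 genes called higher had a match.

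**Figure D1:**
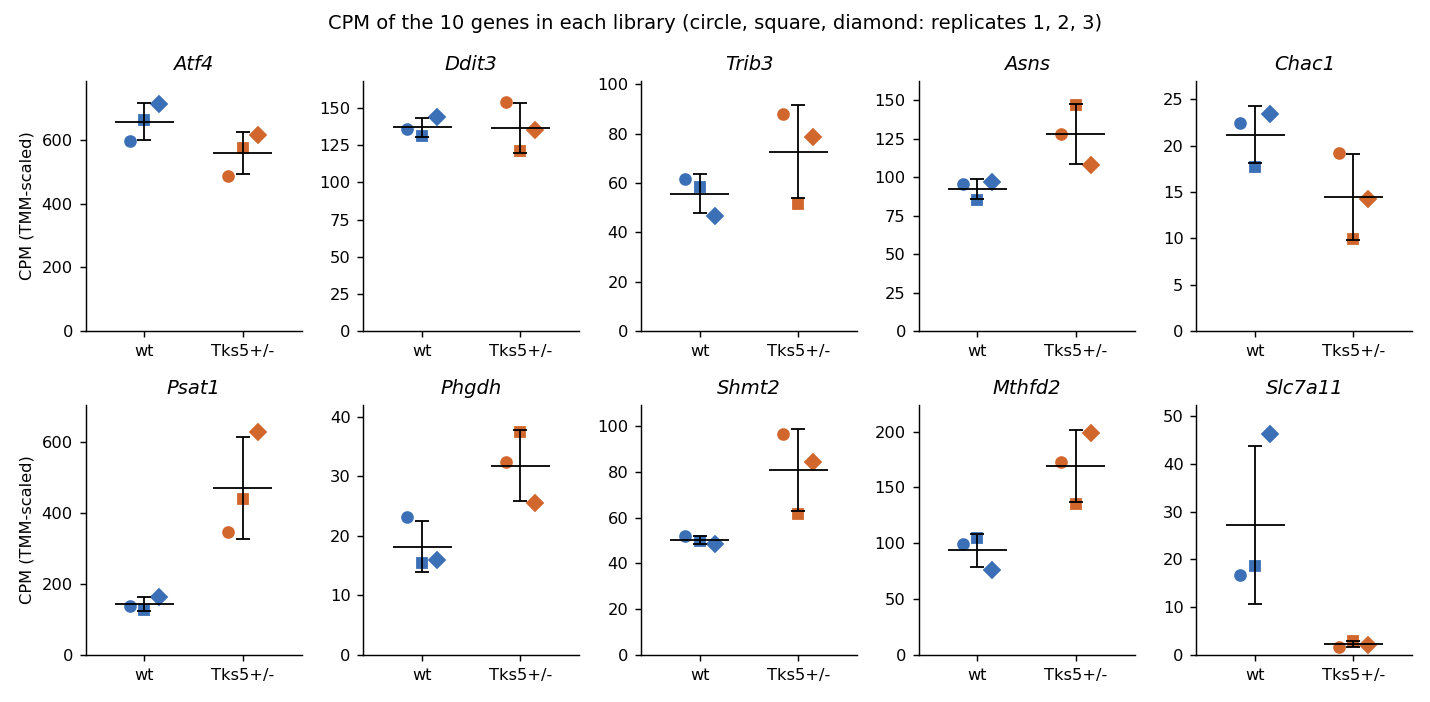
CPM (TMM-scaled) of each gene, on axes that start at 0, for 3 wt (blue) and 3 Tks5+/- libraries (orange); symbols mark replicates 1 to 3, the horizontal line the mean and the bar 1 SD. Psat1 runs from 128 to 164 CPM in wt and from 347 to 628 CPM in Tks5+/-, while Atf4 and Ddit3 overlap between the groups.

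Atf4 (ENSMUSG00000042406; chr15:80255184-80257541, GRCm38, plus strand) had 929, 1235 and 1924 counts in wt libraries and 886, 981 and 1200 in Tks5+/- libraries. Scaled, these were 598, 661 and 713 CPM against 486, 574 and 614 CPM. The groups overlapped, since Tks5+/- replicate 3 lay above wt replicate 1. Means were 657 ± 57.8 and 558 ± 65.4 CPM (SD, n = 3 each), with a log2 fold change of -0.24 (SE 0.20, 95% interval -0.65 to 0.18; adjusted p = 0.348, edgeR). A fall of up to 0.65 on the log2 scale is therefore not excluded by this interval. Atf4 was called lower when libraries were scaled by their totals alone (-0.66) and in the authors' normalized table (-0.68).

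Ddit3 (ENSMUSG00000025408; chr10:127290774-127296288, plus strand) encodes CHOP, a C/EBP family factor induced by ATF4 in prolonged stress. It had 136, 131 and 144 CPM in wt libraries and 154, 121 and 135 CPM in Tks5+/- libraries. The Tks5+/- values fell on both sides of the wt values, with a log2 fold change of -0.01 (SE 0.20, 95% interval -0.42 to 0.40; adjusted p = 0.969, edgeR). This count cannot be read as Ddit3 alone. Its end lies within Mars, the methionyl-tRNA synthetase gene on the opposite strand, and the counts of Ddit3 (212, 245 and 389 in wt; 280, 206 and 263 in Tks5+/-) matched those of Mars (215, 245 and 390; 290, 218 and 266) to within 12 reads in every library. Whether strand was used in the counting is not given in the sources used here, and which gene the reads came from cannot be told apart. The length correction gave a lower call for Ddit3 (-0.55), and the length and GC correction one of -0.76.

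Trib3 (ENSMUSG00000032715; chr2:152337422-152344032, minus strand) encodes a pseudokinase that ATF4 and CHOP induce and that holds their activity back. It had 61.8, 58.3 and 46.7 CPM in wt libraries and 87.8, 51.5 and 78.8 CPM in Tks5+/- libraries. Tks5+/- replicates 1 and 3 lay above every wt library and replicate 2 between them. The log2 fold change was 0.40 (SE 0.23, 95% interval -0.09 to 0.88; adjusted p = 0.172, edgeR), and it was -0.01 when library totals alone were used. Without Tks5+/- replicate 2 it was called higher (0.62), and so it was with a GC correction (0.66).

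Chac1 (ENSMUSG00000027313; chr2:119351229-119354381, plus strand) encodes an enzyme that breaks down glutathione. It had 22.5, 17.7 and 23.4 CPM in wt libraries and 19.2, 9.95 and 14.3 CPM in Tks5+/- libraries, from 17 to 63 counts. Tks5+/- replicate 1 lay inside the wt range and the other 2 below it, with a log2 fold change of -0.54 (SE 0.31, 95% interval -1.18 to 0.09; adjusted p = 0.154, edgeR). It was called lower with library totals alone (-0.95) and with a length correction (-0.82). The log2 ratio of Ddit3 to Atf4 was -2.25 ± 0.11 in wt and -2.03 ± 0.32 in Tks5+/- libraries (SD, n = 3 each), and the 2 groups overlapped (exact permutation test, two-sided, p = 0.4; adjusted over 6 such ratios, 0.48). Since the count of Ddit3 cannot be told apart from that of Mars, this ratio cannot be read as one of Ddit3 alone.

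**Figure D2:**
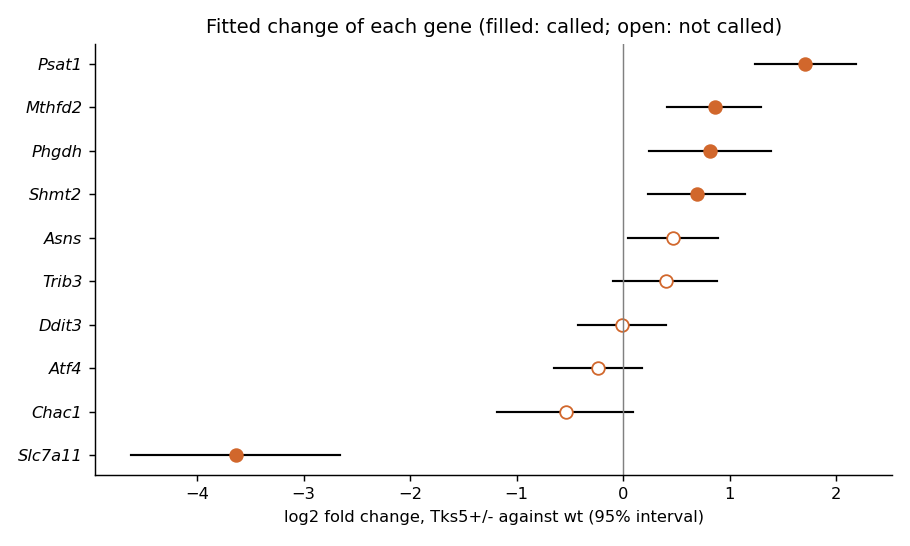
Fitted log2 fold change (x axis, Tks5+/- against wt) and 95% interval of each gene, filled where the gene was called. Psat1 lies at 1.71, Slc7a11 at -3.64, and the intervals of Atf4, Ddit3, Trib3 and Chac1 include 0.

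Asns (ENSMUSG00000029752; chr6:7675169-7693254, minus strand) makes asparagine from aspartate and glutamine and is a standard target of ATF4 when amino acids are short. It had 95.3, 85.1 and 96.8 CPM in wt libraries and 128, 147 and 108 CPM in Tks5+/- libraries. All 3 Tks5+/- libraries lay above all 3 wt libraries, but the change did not pass the threshold (log2 fold change 0.47, SE 0.21, 95% interval 0.05 to 0.89; adjusted p = 0.0662, edgeR). Without Tks5+/- replicate 3 it was called higher (0.62, adjusted p = 0.0371), and with library totals alone its change was 0.05.

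Serine is made from the glycolytic intermediate 3-phosphoglycerate in steps catalysed by PHGDH, PSAT1 and PSPH. Psat1 (ENSMUSG00000024640; chr19:15904678-15947337, minus strand), the transaminase of the middle step, rose most of the 10 genes. Its counts were 216, 240 and 441 in wt libraries and 632, 750 and 1228 in Tks5+/- libraries, or 139, 128 and 164 CPM against 347, 439 and 628 CPM. The lowest Tks5+/- library was above the highest wt library. Means of 144 ± 18 and 471 ± 144 CPM (SD, n = 3 each) gave a log2 fold change of 1.71 (SE 0.23, 95% interval 1.24 to 2.19), a 3.28-fold rise (adjusted p = 3.56e-06, edgeR). It was called higher in 20 of 20 other ways of processing the tables, at 1.28 to 1.94. These ways, counted alike for the genes below, included the same fit without the fold change threshold and 6 fits that each left out 1 library.

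Phgdh (ENSMUSG00000053398; chr3:98313170-98339990, minus strand), the first enzyme of the path, had 23.2, 15.5 and 15.9 CPM in wt libraries and 32.4, 37.4 and 25.6 CPM in Tks5+/- libraries, from 29 to 64 counts. The groups did not overlap, and the log2 fold change was 0.82 (SE 0.28, 95% interval 0.24 to 1.39; adjusted p = 0.0197, edgeR). The call was lost without wt replicate 2 (0.72), without wt replicate 3 (0.72) and without Tks5+/- replicate 2 (0.71). The gene has 20 annotated copies, mostly processed pseudogenes, that match at least 100 of the last 500 bases of its transcripts at 90% identity or more, the closest with counts being Gm7901. The 7 copies with counts summed to 46, 48 and 69 counts in wt libraries and to 20, 21 and 27 in Tks5+/- libraries, opposite in direction to Phgdh. Phgdh and its copies together gave 82, 77 and 112 counts against 79, 85 and 77, with a log2 fold change of -0.03 (adjusted p = 0.932, edgeR). How reads were divided between the gene and its copies cannot be told apart from a change of Phgdh, and the call is uncertain for that reason.

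Psph, the phosphatase that completes serine synthesis and is not one of the 10 genes, had 24.5, 20.9 and 19.3 CPM in wt libraries and 102, 122 and 98.3 CPM in Tks5+/- libraries. Every Tks5+/- library was far above every wt library (log2 fold change 2.32, SE 0.23, 5.00-fold; adjusted p = 8.62e-08, edgeR). Psat1 stood 2.93 ± 0.37 above Phgdh on the log2 CPM scale in wt libraries and 3.82 ± 0.65 above it in Tks5+/- libraries (SD, n = 3 each). These ratios did not overlap between groups (exact permutation test, two-sided, p = 0.1, the smallest that 3 against 3 allows; adjusted p = 0.15). How reads were divided between Phgdh and its copies bears on this ratio too.

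**Figure D3:**
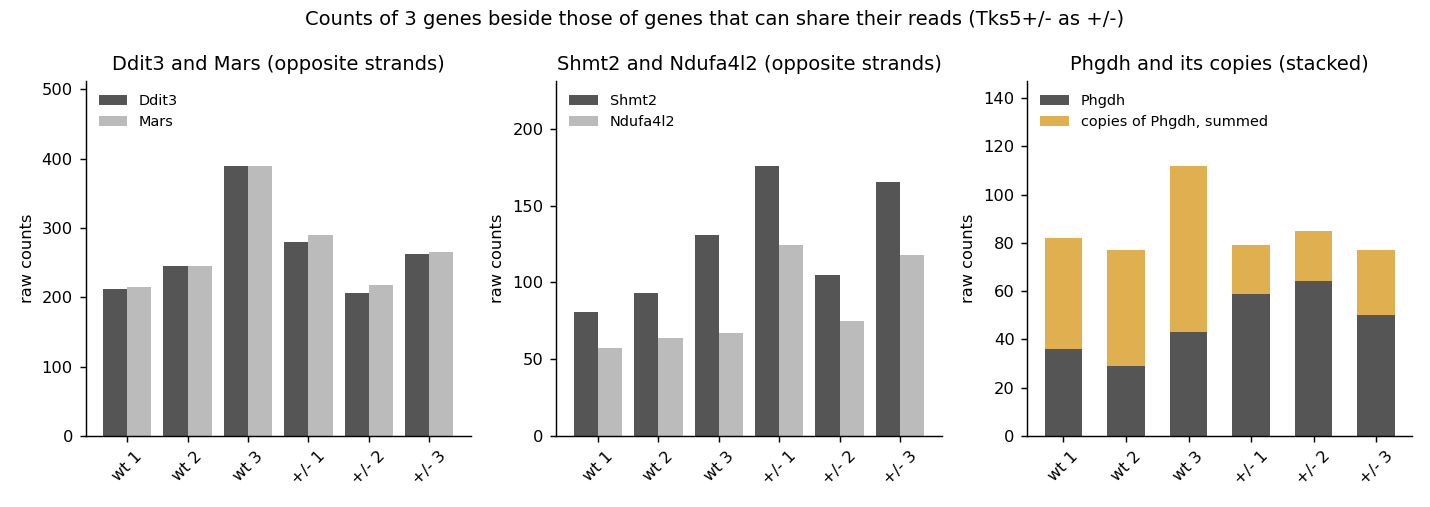
Raw counts (y axes, from 0) in each wt and Tks5+/- library (written +/-) of Ddit3 beside Mars, Shmt2 beside Ndufa4l2, and Phgdh stacked with the sum of its copies. Ddit3 and Mars match to within 12 reads, Ndufa4l2 runs below Shmt2 in every library, and the stacked Phgdh bars reach 77 to 112 in wt and 77 to 85 in Tks5+/-.

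Shmt2 and Mthfd2 carry serine into the mitochondrial folate cycle, where SHMT2 splits serine into glycine and a one-carbon unit and MTHFD2 oxidises that unit. Shmt2 (ENSMUSG00000025403; chr10:127517123-127522444, minus strand) had 52.1, 49.8 and 48.6 CPM in wt libraries and 96.6, 61.4 and 84.4 CPM in Tks5+/- libraries. The groups did not overlap and the log2 fold change was 0.69 (SE 0.22, 95% interval 0.23 to 1.15), a 1.61-fold rise (adjusted p = 0.0142, edgeR). Its end overlaps that of Ndufa4l2 on the opposite strand, which had 57, 64 and 67 counts in wt and 124, 75 and 118 counts in Tks5+/- libraries, beside 81, 93 and 131 and 176, 105 and 165 for Shmt2. In the Tks5+/- libraries both genes were highest in replicate 1 and lowest in replicate 2. If every Ndufa4l2 count were also counted in Shmt2 and is taken off, 24, 29 and 64 counts are left in wt and 52, 30 and 47 in Tks5+/- libraries, with a log2 fold change of 0.34 that did not pass (adjusted p = 0.363, edgeR). The rise of Shmt2 therefore cannot be told apart from one of Ndufa4l2. The call was also lost without wt replicate 2 (0.68, adjusted p = 0.0528).

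Mthfd2 (ENSMUSG00000005667; chr6:83305691-83325908, minus strand) had 154, 197 and 206 counts in wt libraries and 315, 231 and 388 in Tks5+/- libraries. These were 99.1, 105 and 76.4 CPM against 173, 135 and 199 CPM, so that each Tks5+/- library exceeded each wt library. The log2 fold change was 0.86 (SE 0.22, 95% interval 0.41 to 1.30), a 1.81-fold rise (adjusted p = 0.00262, edgeR). No counted gene overlapped it and no near-identical copy was found. It was called in 19 of 20 other ways of processing, the exception being scaling by library totals alone (0.44, adjusted p = 0.102). The CPM of all 10 genes summed to 1244, 1271 and 1375 in wt and to 1526, 1579 and 1889 in Tks5+/- libraries. Atf4 was the largest part of each wt sum, and Atf4 and Psat1 together made up most of each Tks5+/- sum.

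Neither the cytosolic counterparts of these enzymes nor their other mitochondrial relatives passed the test. Shmt1 had 8.56 to 9.65 CPM in wt and 2.19 to 8.19 CPM in Tks5+/- libraries (log2 fold change -0.93, SE 0.46; adjusted p = 0.104, edgeR), and its end overlaps Smcr8 on the opposite strand, with counts close to its own in wt. Mthfd1, the cytosolic trifunctional enzyme, had a log2 fold change of -0.42 (adjusted p = 0.263), the mitochondrial Mthfd1l one of 0.64 (adjusted p = 0.092) and Mthfd2l one of 0.78 (adjusted p = 0.0728). Mthfd1l (10.7 to 14.1 against 18.1 to 19.9 CPM) and Mthfd2l (6.96 to 8.37 against 12.8 to 14.0 CPM) were higher without overlap between the groups. In other ways of processing, Mthfd1l was called higher in 2 and Mthfd2l in 3, and Shmt1 was called lower in 2 and Mthfd1 in 1. Within libraries, Shmt2 stood above Shmt1 by 2.32, 2.41 and 2.32 on the log2 CPM scale in wt and by 4.93, 3.79 and 3.22 in Tks5+/- libraries. Mthfd2 stood above Mthfd1 by 2.35, 2.64 and 1.76 in wt and by 3.62, 3.30 and 3.52 in Tks5+/- libraries. The overlaps of Shmt2 and Shmt1 with genes on the other strand bear on their ratio too. Neither ratio overlapped between the groups, at differences of 1.63 and 1.23 (exact permutation test, two-sided, p = 0.1 each, the smallest possible; adjusted p = 0.15). The ratio of Mthfd2 to Mthfd1l, both mitochondrial, overlapped (difference 0.21, p = 0.5 by the same exact test).

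Slc7a11 (ENSMUSG00000027737; chr3:49892526-50443614, minus strand) encodes xCT, which brings in cystine in exchange for glutamate and so feeds glutathione synthesis. Its counts were 26, 35 and 125 in wt and 3, 5 and 4 in Tks5+/- libraries, or 16.7, 18.7 and 46.3 CPM against 1.65, 2.93 and 2.05 CPM. Every Tks5+/- library was below every wt library, and wt replicate 3 stood well above the other wt libraries. The log2 fold change was -3.64 (SE 0.47, 95% interval -4.62 to -2.66), 12.4-fold lower in Tks5+/- libraries (adjusted p = 2.71e-06, edgeR). Without wt replicate 3, the library with 2102 CPM of macrophage markers, it was -2.98 (adjusted p = 1.77e-05). In wt replicates 1 and 2 those markers summed to 419 and 354 CPM, still above 125 to 141 CPM in Tks5+/-, and their part in the Slc7a11 difference was not tested. The gene was called lower in all 19 other ways of processing in which it could be tested, at -4.05 to -2.91. It entered the test only through its wt counts, and the size of the fall rests on 3 to 5 counts in each Tks5+/- library.

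Slc3a2 encodes the heavy chain that holds xCT and other light chains at the cell surface. It had 121, 180 and 149 CPM in wt libraries and 139, 63.2 and 121 CPM in Tks5+/- libraries. The groups overlapped, with a log2 fold change of -0.48 that did not pass (SE 0.25; adjusted p = 0.123, edgeR). The log2 ratio of Slc7a11 to Slc3a2 was -2.78, -3.20 and -1.66 in wt and -5.72, -4.03 and -5.32 in Tks5+/- libraries, groups that did not overlap (exact permutation test, two-sided, p = 0.1; adjusted p = 0.15).

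**Figure D4:**
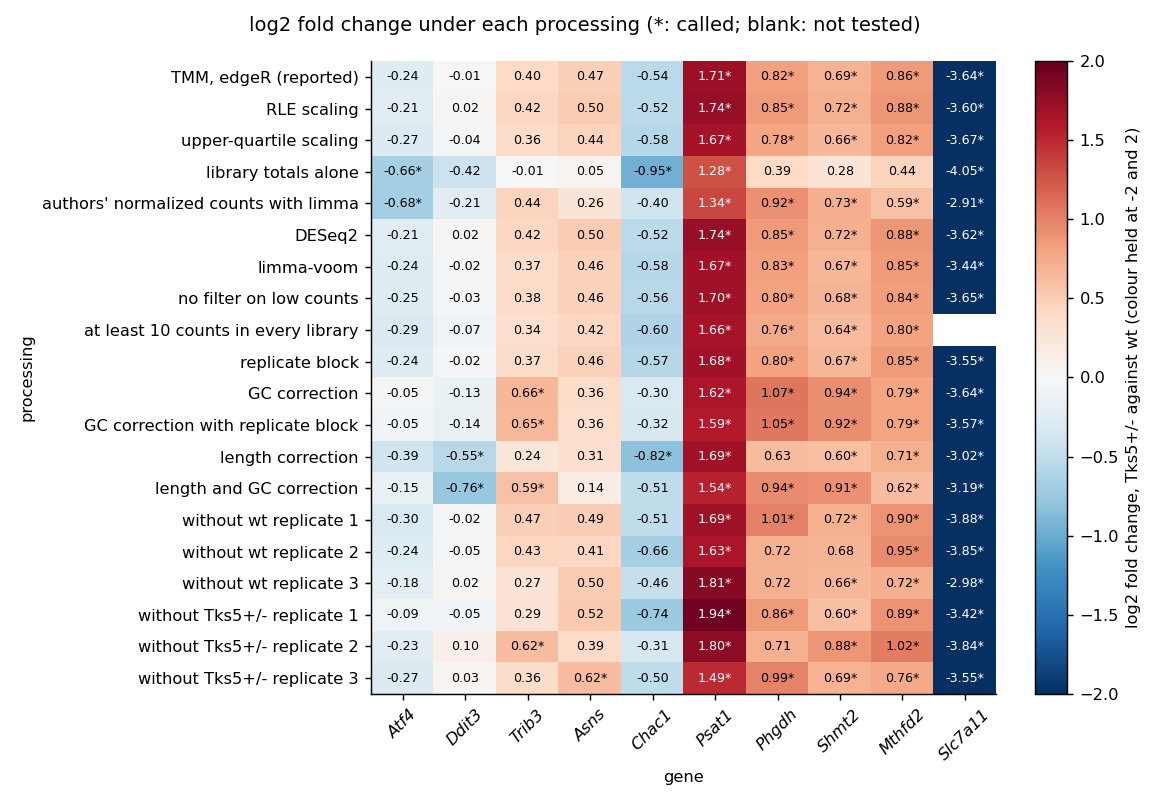
log2 fold change of each gene (columns) under each way of processing the tables (lines), with a star where the gene was called and colour held at -2 and 2. Psat1 keeps its star throughout and Slc7a11 wherever it could be tested, while Phgdh loses it in 5 of the settings shown.

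The rest of the pathway was read from lists of related genes. Beside the background of 22.8% higher and 22.1% lower, the 19 tested of 22 listed stress sensors and ATF4 partners had 4 called higher, 5 called lower (3 where at least 10 counts in every library were required) and a median log2 fold change of 0.15. Of the eIF2 kinases, Eif2ak2 (PKR, which senses double-stranded RNA) fell from 28.3, 19.8 and 15.2 CPM in wt to 5.49, 4.10 and 6.14 CPM in Tks5+/- libraries (log2 fold change -1.97, SE 0.37; adjusted p = 1.83e-04, edgeR). Eif2ak4 (GCN2, which senses uncharged tRNA) had 3.86 to 5.93 CPM in wt and 8.78 to 11.3 CPM in Tks5+/- libraries and did not pass (0.97, adjusted p = 0.0531). It was called higher in 3 of 19 other ways of processing, with RLE scaling and both length corrections. Counts were low for Eif2ak4 (6 to 22) and for Eif2ak2 in Tks5+/- libraries (7 to 12). Eif2ak3 (PERK; -0.43, adjusted p = 0.419, 8 to 26 counts) and Eif2ak1 (HRI; 0.04, adjusted p = 0.883) overlapped between groups, and the latter's sign changed with the scaling. The end of Eif2ak1 overlaps Aimp2 on the opposite strand. Aimp2 had 138, 153 and 215 counts in wt and 129, 134 and 195 in Tks5+/- libraries. Those of Eif2ak1 were 182, 211 and 273 in wt and 173, 194 and 258 in Tks5+/-, and cannot be read as Eif2ak1 alone. Eif4ebp1, a translation repressor that ATF4 induces, rose 2.56-fold (1.36, SE 0.21; adjusted p = 1.95e-05). Atf5, a sister factor of ATF4, fell from 1011, 1155 and 1016 CPM to 409, 385 and 570 CPM (-1.22, adjusted p = 7.26e-05). Nupr1, a stress-induced cofactor, fell by a like amount (-1.24, adjusted p = 1.26e-04). The other calls, named after their values were seen, were Ddit4 (1.13), Ero1a (0.93) and Cebpg (0.66) among the higher and Sesn2 (-1.47) and Gdf15 (-1.22) among the lower genes.

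Of 15 tested genes of serine, glycine and one-carbon metabolism outside the 10, 2 were called higher and 1 lower, beside 22.8% and 22.1% of all genes. Their median was -0.15. The lower calls were 6 with library totals alone and 2 with a length correction, which gave 4 higher. Besides Psph, the higher call was Tyms, thymidylate synthase (1.05, SE 0.24; adjusted p = 9.5e-04, edgeR). Aldh1l1, which burns off one-carbon units as carbon dioxide, was called lower (-1.34, SE 0.44; adjusted p = 0.0160) and lost the call on leaving out wt replicate 1 (-1.17) or 3 (-1.18), or Tks5+/- replicate 2 (-1.29) or 3 (-0.92). These are values of the log2 fold change of Aldh1l1. Of 15 tested genes of glutamine, proline and asparagine metabolism, 5 were called higher and 2 lower (median 0.10), beside the same shares of all genes. The higher calls were 2 without wt replicate 3 or Tks5+/- replicate 2 and with library totals alone, and 3 without wt replicate 2 and where at least 10 counts in every library were required. There was 1 lower call without Tks5+/- replicate 1 or 2. Oat, ornithine aminotransferase (1.19, adjusted p = 1.49e-04), and Asrgl1, an asparaginase (1.52, adjusted p = 0.0081), rose and Glul, glutamine synthetase, fell (-1.17, adjusted p = 0.00413). The Asrgl1 call was lost without wt replicate 3 or Tks5+/- replicate 2 (log2 fold change of Asrgl1 1.15 and 1.25). Oat shares its end region with an Fgfr2 annotation on the same strand.

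Most of the amino acid transporter genes called were lower in Tks5+/- libraries. Of 12 tested, 6 were called lower and 1 higher, beside 22.1% and 22.8% of all genes. The median log2 fold change was -0.66, against -0.05 for all genes. Slc7a5, the large neutral amino acid exchanger LAT1, fell from 61.1, 69.0 and 77.1 CPM to 26.3, 19.3 and 22.5 CPM (-1.60, SE 0.23; adjusted p = 1.01e-05, edgeR). Slc7a5 and Gm20388 overlap on opposite strands. Slc7a1, the arginine and lysine transporter CAT1, fell by 1.26 on the log2 scale (adjusted p = 9.04e-05). The other lower calls, named after their values were seen, were Slc7a2 (-1.48), Slc6a9 (-1.33), Slc1a5 (-0.86) and Slc1a4 (-0.83). At its end Slc6a9 overlaps B4galt2 on the opposite strand, which had 206, 257 and 382 counts in wt and 235, 166 and 201 in Tks5+/-. Slc38a4 was the higher call (3.10, adjusted p = 3.13e-04), with 3, 4 and 6 counts in wt and 16, 17 and 72 in Tks5+/- libraries, and was 2.15 without Tks5+/- replicate 3. Without wt replicate 3 there were 4 lower and 2 higher calls, and with a length and GC correction 3 lower. The higher calls were 2 without Tks5+/- replicate 1 or 3 and with the length corrections, and 0 at a minimum of 10 counts in every library.

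**Figure D5:**
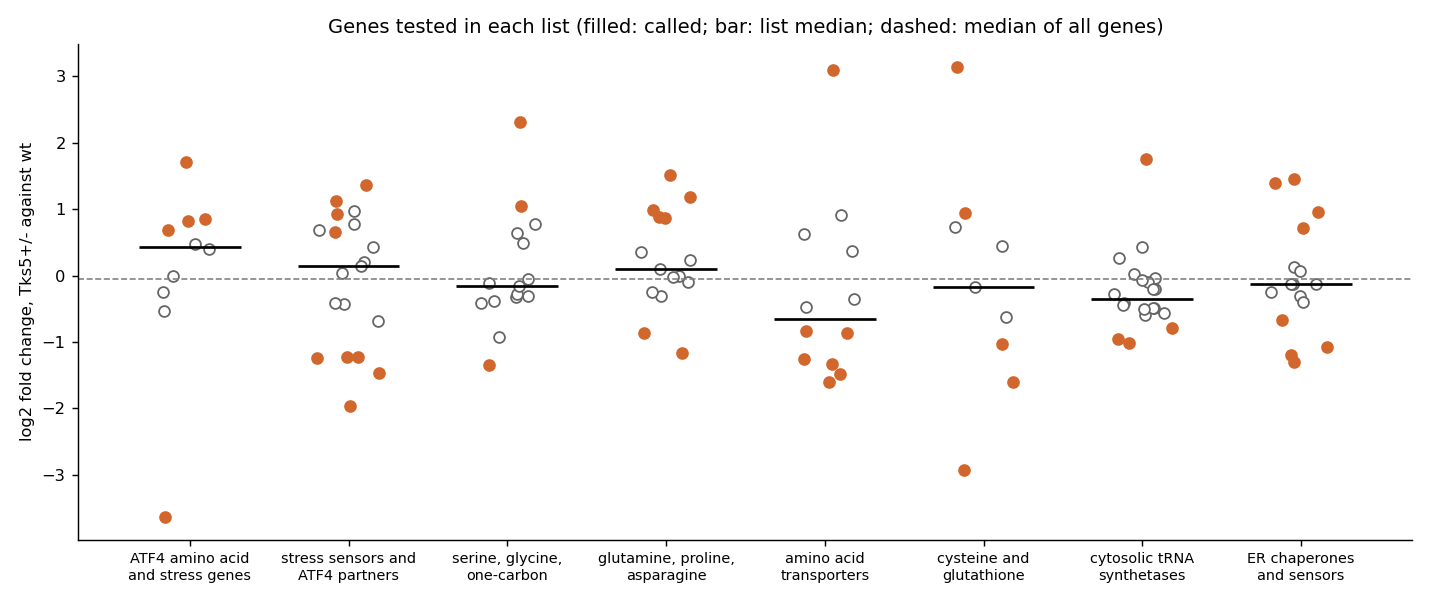
log2 fold change (y axis, Tks5+/- against wt) of each tested gene in the 10 genes and in 7 related lists, filled where called, with a bar at each list's median and a dashed line at the median of all genes. List medians run from -0.66 in amino acid transporters to 0.43 in the 10 genes, against -0.05.

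Genes that make cysteine and use it moved in both directions, 2 higher and 3 lower of 9 tested (median -0.17), beside 22.8% and 22.1% of all genes. The higher calls fell to 1, Cth, with library totals alone and on leaving out wt replicate 2 or 3 or Tks5+/- replicate 2 or 3. Cth, cystathionine gamma-lyase, which makes cysteine from cystathionine, had 7.08, 5.35 and 16.7 CPM in wt and 69.7, 94.8 and 111 CPM in Tks5+/- libraries. This was an 8.89-fold rise (log2 fold change 3.15, SE 0.32; adjusted p = 2.70e-07, edgeR), without overlap between groups, and 3.88 on the log2 scale without wt replicate 3. Cdo1, cysteine dioxygenase, which removes cysteine, fell from 83.0, 97.4 and 80.5 CPM to 7.68, 15.2 and 11.3 CPM (-2.93, SE 0.27; adjusted p = 2.66e-08). Gss, glutathione synthetase, fell (-1.03, adjusted p = 0.00268), with an overlap of Acss2 on the opposite strand. The remaining calls, named after their values were seen, were Gclc (-1.61) and Gpx4 (0.94), and the CPM of Gpx4 overlapped between the groups.

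Cytosolic tRNA synthetase genes, another group that ATF4 induces, had 1 call higher and 3 lower of 20 tested, beside 22.8% and 22.1% of all genes. Their median was -0.35. The lower calls were 14 with library totals alone, 5 without Tks5+/- replicate 1, 2 without wt replicate 3 or Tks5+/- replicate 3, 5 with a length correction or a GC correction with the replicate block, and 6 with length and GC corrections. Both length corrections gave 2 higher. Tars, for threonine, rose from 269 ± 13.2 to 904 ± 318 CPM (SD, n = 3 each; 1.75, SE 0.24; adjusted p = 5.69e-06, edgeR). Cars, for cysteine (-1.01, adjusted p = 0.00113), and Farsa, for phenylalanine (-0.79, adjusted p = 0.00504), fell, and so did Yars (-0.96), named after its values were seen. At its end Yars overlaps C77080 on the opposite strand, which had 12, 33 and 35 counts in wt and 8, 5 and 2 in Tks5+/-. Chaperone and sensor genes of the endoplasmic reticulum had 4 calls higher and 4 lower of 16 tested (median -0.13), beside the same shares of all genes. Their lower calls were 2 without wt replicate 2 and with a length correction, and 7 with library totals alone. Pdia6, a disulfide isomerase (1.46, adjusted p = 1.29e-05), and Manf, a secreted stress factor (1.40, adjusted p = 2.30e-05), rose, and Hyou1, a chaperone of the HSP70 family, fell (-1.19, adjusted p = 4.14e-04). The remaining calls, named after their values were seen, were Xbp1 (0.96) and Dnajb9 (0.72) among the higher genes. Among the lower ones they were Ern1 (-1.30), Sel1l (-1.07) and Dnajc3 (-0.67). The CPM of Dnajb9 overlapped between the groups. Hspa5, a much used marker of unfolded protein stress and also named after its values were seen, did not pass (-0.30). Its CPM were lower without overlap (3836 to 4412 in wt, 2426 to 3828 in Tks5+/-).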

How the data were processed

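Quant-Seq libraries of 6 cultures were analysed. The authors trimmed reads with Trim Galore, aligned them to GRCm38 with HISAT2 and then Bowtie2, counted them over 3′ UTR regions with metaseqR2 and deposited raw counts per gene; whether strand was used is not given in the sources used here. The deposited normalized table (EDASeq, rounded, treated as a score since all 6 columns hold the same sorted values) served as an alternative. The authors' differential testing was not rerun.

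Counts were fitted as one table in edgeR 4.0.16 (R 4.3.3; filterByExpr, TMM, robust quasi-likelihood F test, wt against Tks5+/-, n = 3 each), with Benjamini-Hochberg adjustment over 10346 genes. Called genes had adjusted p under 0.05 and a change of at least 1.2-fold. The method was tried only on simulated data in which few genes changed, unlike the large share called here. That trial is no measure of its error rate in these data. CPM are TMM-scaled; ratios used a pseudocount of 1 CPM. Intervals are those of the fit. Identities of transcript ends and coordinates came from GENCODE annotation of GRCm38, promoters from RefSeq. The alternatives were other scalings, tools (DESeq2 1.42.0, limma 3.58.1), filters, GC and length corrections, a replicate block, leaving out each library, and the same fit without the fold change threshold. Phgdh with its copies and Shmt2 less Ndufa4l2 were added after seeing the data. The genes and lists were chosen with earlier results of these data known. Named genes were the 10, Sh3pxd2a, their isozymes and partners, the eIF2 kinases, and the 3 called genes of smallest adjusted p in each other list.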

Additional observations from a re-analysis of the deposited data

How the results depend on the processing

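Scaling by library totals alone shifted the median over all genes on the log2 scale from -0.05 to -0.47, and the changes under it are to be read against that shift. Under it 1 of the 10 genes was called higher and 3 lower, instead of 4 and 1. Called lower were also 2 in the authors' normalized table with limma, 3 with a length correction, 2 with length and GC corrections, and 0 where at least 10 counts in every library were required, which left Slc7a11 untested. Leaving out 1 library gave 2 to 5 higher calls and 1 lower call, the 2 without wt replicate 2. Calls over all genes ran from 3705 (at least 10 counts in every library) to 5306 (library totals alone, 1362 higher and 3944 lower against 2356 and 2286), and leaving out 1 library from 3853 to 4595. Directions turned for Ddit3 (0.02 with RLE scaling and with DESeq2, and -0.05 to 0.10 on leaving out 1 library), Trib3 (-0.01, library totals), Phgdh with its copies summed (-0.03), Sh3pxd2a (-0.13, library totals), and the ratio of Mthfd2 to Mthfd1l (-0.04 without wt replicate 3, highest 0.40 without Tks5+/- replicate 2). Eif2ak1 turned with library totals (-0.39), the authors' normalized table (-0.20), at least 10 counts in every library (-0.01), GC correction (-0.03), GC correction with the replicate block (-0.04) and on leaving out 1 library (lowest -0.04, highest 0.21; -0.02 without wt replicate 3). The cause was not tested. Libraries with the same replicate number did not deviate together (correlations of deviations -0.00, -0.06 and 0.08, beside -0.10 to 0.10 for unlike numbers). With 3 libraries in each group this cannot settle whether the samples were paired. The replicate block gave 4668 calls and the same 4 higher and 1 lower. Counts under 50 for Chac1, Phgdh and Slc7a11 in some libraries limit their precision.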
